A study of Homo sapiens with 5 samples.

Results

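The genes described here encode splicing factors and RNA helicases. They were taken by symbol: SR proteins (SRSF), heterogeneous nuclear ribonucleoproteins (HNRNP), SF3A, SF3B and U2AF subunits, PRPF factors and the DDX and DHX helicases, without the interferon-stimulated DDX60 and DHX58 and without genes of chromosome 21 or Y. Of 102 measured genes with such symbols, 14 were left out by these conditions, 9 of them pseudogenes and 2 noncoding RNAs, and 88 of the 14812 genes tested remained. The 88 comprise 10 SRSF, 21 HNRNP, 2 U2AF, 10 PRPF, 30 DDX and 15 DHX genes. No SF3A or SF3B gene is among them, nor are SRSF9, SRSF10, DDX39A, DDX39B or DDX3X, which were not analysed here.

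Expression was measured in LNCaP, an established prostate cancer cell line, on 5 single-colour arrays. The cells had been infected with retrovirus carrying a scrambled hairpin (shControl, 2 arrays) or a hairpin against RB1 (shRB, 3 arrays) and selected with puromycin. Both groups received 10 Gy of ionizing radiation, and RNA was taken 24 h later, so no unirradiated cells enter the comparison. Nothing in the labels ties replicates to separate cultures or infections. The p-values therefore measure spread among these arrays alone, and that spread may be technical.

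Introns are removed by the spliceosome, which assembles anew on each intron from small nuclear ribonucleoproteins (snRNPs) and many further proteins. SR proteins bind exonic enhancers through RNA recognition motifs and recruit the machinery through domains rich in arginine and serine, whereas hnRNP proteins coat nascent transcripts and often oppose them. DEAD-box (DDX) and DEAH-box (DHX) proteins use ATP to unwind or remodel RNA at successive steps of splicing, export, ribosome assembly, translation and decay. The pocket protein RB, the product of RB1, represses genes through E2F transcription factors.

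Values are log2 of the deposited linear intensities, each from 1 probe set per gene, and differences are shRB minus shControl on that scale. The deposited intensities have a floor of 16, a log2 value of 4, which compresses the differences of dim genes. The floor was read from the values, and the sources used here do not state how it arose. Results given with 16 taken off assume that it was added to every value. The number of arrays limits the precision. Median intensities of the arrays ranged from 26.65 to 28.06. RB1 (probe set 16774690) stood at 5.81 and 5.70 in shControl and at 5.16, 5.28 and 5.20 in shRB, so the groups did not overlap, and the difference was -0.54 (SE 0.14, limma adjusted p = 0.0967). Of the luminal markers, KLK3 read 10.06 to 10.17 over the arrays, KLK2 9.16 to 9.34 and KRT8 6.05 to 6.81. KRT18 (-0.29) and HOXB13 (-0.17) had every shRB array below both shControl arrays, where 15.4% of all genes did. Over the luminal markers measured, 2 differences were positive and 4 negative. The stromal markers DCN and LUM lay near the floor (4.15 to 4.64), and THY1 read 4.62 to 5.06. Summed linear intensities of the 6 measured luminal markers of 10 listed were 2951 to 3206 in shControl and 2966 to 3060 in shRB. Those of the 3 stromal markers of 8 listed were 66 to 73 and 70 to 74, and those of the 4 blood and endothelial markers of 10 listed 198 to 274 and 220 to 234. Of the last, VWF stood at 6.12 and 6.41 against 5.94, 5.76 and 5.13 (difference -0.65, adjusted p = 0.164). CD68 stood at 6.46 and 7.21 against 7.04, 6.95 and 7.19 (0.22, adjusted p = 0.613). CD14, near the floor, stood at 4.29 and 4.21 against 4.64, 4.46 and 4.48 (0.28, adjusted p = 0.348), and KDR differed by -0.09. Over these 4 markers, 2 differences were positive and 2 negative. No marker passed the test, and their part in the results was not tested.

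No splicing factor or helicase gene passed the test between shRB and shControl. Of the 88 genes, 0 had an adjusted p under 0.05 (limma, Benjamini-Hochberg over 14812 genes), where 1.07% of all genes passed. At an adjusted p under 0.1 there were also 0 (3.49% of all genes), and with the dimmer genes left out 0 (5.2% of those tested). At an unadjusted p under 0.05 there were 12 (13.6%), against 18.1% of all genes. The differences were small: they ranged from -0.62 (PRPF40B) to 0.61 (DHX35), and 3 of 88 exceeded 0.5 in size, where 7.64% of all genes did. The 95% interval of 87 genes lay within a 2-fold change in either direction on the deposited scale, DHX35 being the exception. The same held for 14295 of the 14812 genes tested. These intervals carry only the spread among these arrays. The members were mostly well measured, with 77 of 88 at or above the median brightness of all genes and 6 below a log2 intensity of 5 on every array.

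The signs were uneven. Differences were negative for 55 genes and positive for 33, that is 62.5% negative where 46.2% of all genes were, and the median difference was -0.05 against 0.02 over all genes. Arrays of the 2 groups did not overlap for 42 genes (47.7%), against 36.0% of all genes. In 26 of them (29.5% of the members) shRB lay wholly below shControl, where 15.4% of all genes did so. In the other 16 (18.2%) it lay wholly above, where 20.6% of all genes did. The number without overlap was 65 when shControl replicate 1 was left out and 57 when shControl replicate 2 was, against 68.3% and 66.9% of all genes. In a bulk extract, less RNA per cell and fewer cells holding it cannot be told apart.

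**Figure D1:**
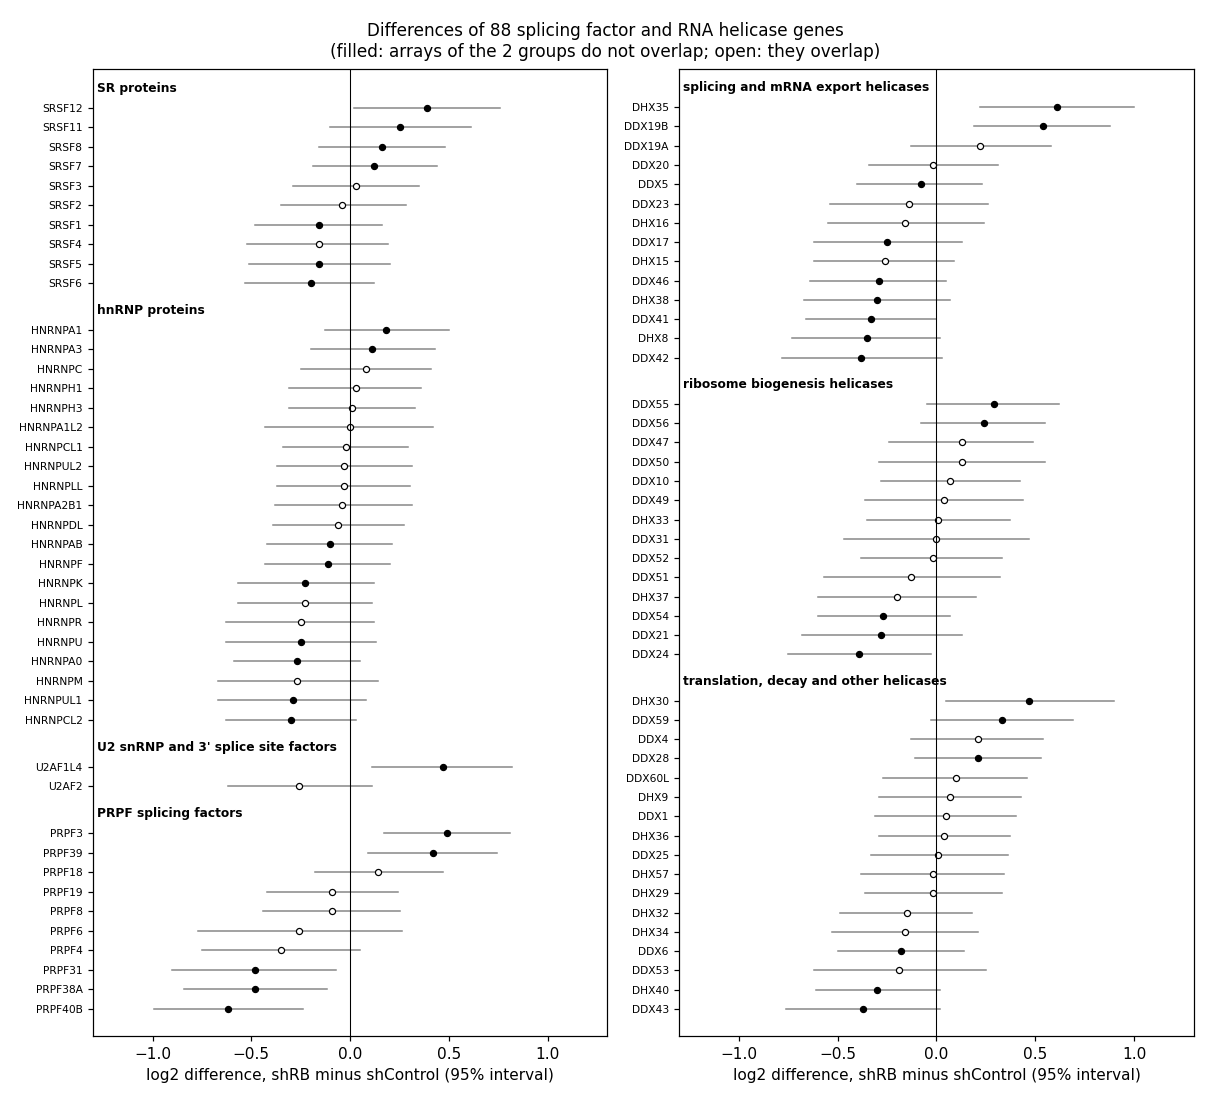
Log2 difference between shRB (3 arrays) and shControl (2 arrays) for each of the 88 genes, grouped by role, with the 95% interval from limma as a line; filled points mark genes whose arrays did not overlap between groups. The points range from -0.62 (PRPF40B) to 0.61 (DHX35) and most intervals cross 0.

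The size of the excess of negative signs varied with the arrays used. Positive differences numbered 42 without shRB replicate 3 and 40 without shControl replicate 2 (median -0.021), against 29 to 31 without any 1 of the other arrays. In 62 of the 88 genes (70.5%), shRB replicate 3 was the lowest of the 3 shRB arrays, where it was so for 39.1% of all genes. Replicate 3 minus the mean of shRB replicates 1 and 2 had a median of -0.14 over the members and -0.03 over all genes. With all genes divided into 4 equal groups by mean brightness, this median was 0.00 in the dimmest group and -0.07 in the brightest, where replicate 3 was the lowest for 50.4%. The 56 members in the brightest group had it lowest in 43 cases (76.8%), with a median of -0.14. The highest intensity on shRB replicates 2 and 3 was 5850 and 4933, against 9785 to 10038 on the other arrays. Without shRB replicate 3 the median difference over the members was -0.005, and negative differences numbered 46 and positive ones 42 (52.3% negative, against 44.8% of all genes). In that comparison 26 genes lay wholly below shControl (18.0% of all genes did) and 19 wholly above (26.0%), 51.1% without overlap against 44.0%. Leaving out an array cannot make separated groups overlap, so neither count could fall. There 7 had an unadjusted p under 0.05, where 11.9% of all genes did, and 0 passed after adjustment, where 0.149% did. After quantile normalization, chosen for this count after seeing the data, replicate 3 was the lowest in 54 of 88. The part of this array in the results below was not tested beyond these values.

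**Figure D2:**
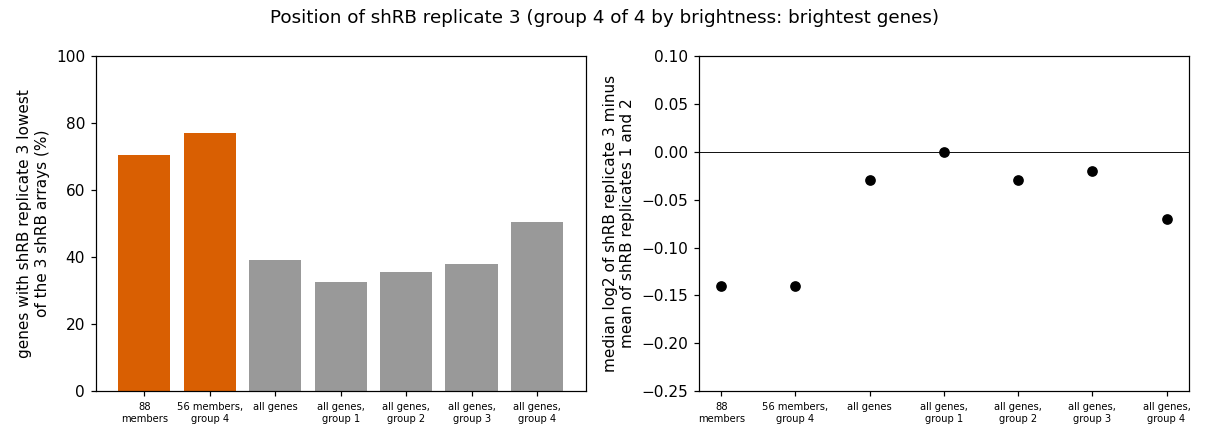
Left, the percentage of genes for which shRB replicate 3 was the lowest of the 3 shRB arrays; right, its median log2 distance from the mean of shRB replicates 1 and 2. Bars (orange, members; grey, all genes) and points are given for the 88 members, the 56 in the brightest of 4 equal brightness groups (labelled group 4), all genes and each brightness group of all genes. Members stand at 70.5% and 76.8%, all genes at 39.1% and their brightest group at 50.4%.

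**Figure D3:**
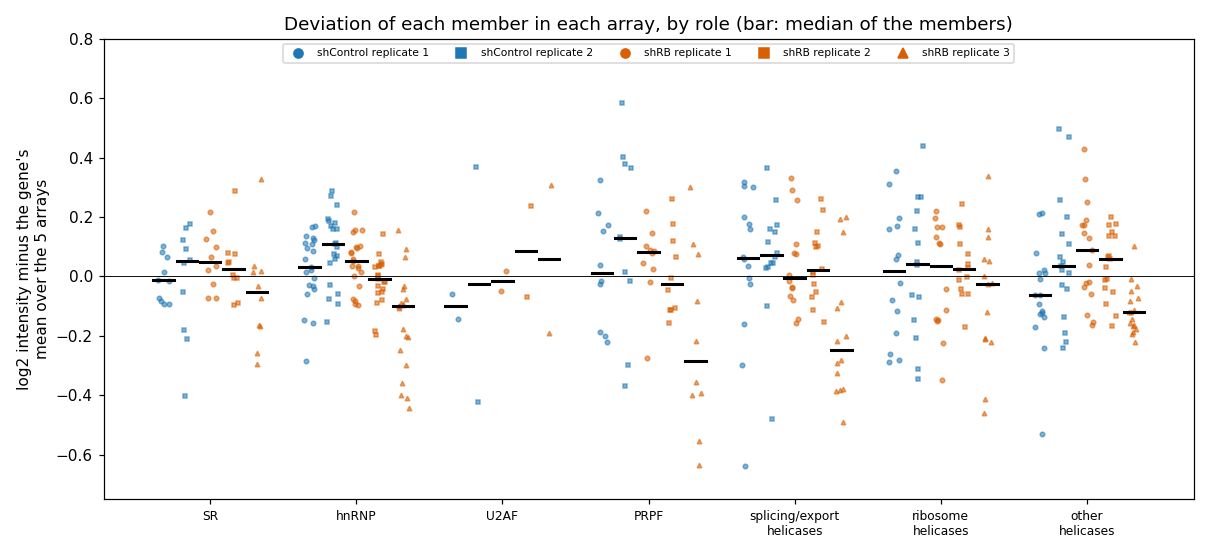
Log2 intensity of each member in each of the 5 arrays minus that gene's mean over the arrays, by role; points are genes and bars medians. The bar of shRB replicate 3 (triangles) is the lowest of the 5 in every role but U2AF (0.06), at -0.29 for PRPF, -0.25 for splicing and export helicases, -0.12 for the other helicases, -0.10 for hnRNP, -0.05 for SR and -0.02 for ribosome biogenesis helicases.

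Of the 10 SR protein genes, 5 had a positive and 5 a negative difference, and the median was -0.002. SRSF1, which selects 5′ splice sites and is an oncogene when overproduced, stood at 9.31 and 9.47 in shControl and at 9.27, 9.29 and 9.13 in shRB, a difference of -0.16 (95% interval -0.48 to 0.16). SRSF3, the smallest SR protein and also an export adaptor, stood at 10.05 and 10.18 against 10.17, 10.21 and 10.06, and its groups overlapped. Its difference of 0.03 has an interval of -0.29 to 0.35, and that of SRSF2 (-0.04), -0.35 to 0.28. SRSF6 was measured at 9.08 and 9.16 in shControl and 9.02, 8.90 and 8.83 in shRB (difference -0.20, adjusted p = 0.497). All 3 of its shRB arrays lay below both shControl arrays, by as little as 0.06.

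SRSF11, an SR-like protein, lay on the other side: 7.89 and 7.77 in shControl and 7.91, 8.03 and 8.31 in shRB (difference 0.25, adjusted p = 0.445). Here shRB replicate 3 was the highest array, against the common order. SRSF8 (0.16) and SRSF7 (0.12) also had every shRB array above both shControl arrays. SRSF12 had the largest difference of the family, 0.39 (SE 0.17, adjusted p = 0.252), with 4.33 and 4.0 against 4.62, 4.69 and 4.37. It lay at or near the floor, so it is not shown to be above background, and with 16 taken off and 4 added its difference was 1.0. In all, 7 of the 10 had groups that did not overlap (36.0% of all genes), 4 with shRB above (20.6%) and 3 with shRB below (15.4%). These separations were slight: the nearest arrays of the groups lay between 0.0 (SRSF5) and 0.06 (SRSF6 and SRSF7) apart.

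The hnRNP genes tilted to negative differences, 16 of 21, with a median of -0.06 and a range of -0.30 to 0.18. None of them had an unadjusted p under 0.05, where 18.1% of all genes did. HNRNPK, a poly(C)-binding protein, stood at 10.05 and 10.10 in shControl and 9.94, 9.97 and 9.64 in shRB (difference -0.23, adjusted p = 0.483). HNRNPU, a nuclear scaffold protein, stood at 9.87 and 9.91 against 9.80, 9.78 and 9.34 (-0.25, adjusted p = 0.48). HNRNPM, another regulator of alternative exons, stood at 9.95 and 10.00 against 9.97, 9.78 and 9.37 (-0.27, adjusted p = 0.48). In these genes shRB replicate 3 lay 0.30 (HNRNPK), 0.44 (HNRNPU) and 0.41 (HNRNPM) below the next shRB array, and in HNRNPM shRB replicate 1 lay between the shControl arrays. Without shRB replicate 3 the family had 9 positive and 12 negative differences and a median of -0.03.

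A tighter pattern was seen in HNRNPA0, a protein that binds AU-rich transcripts. It stood at 7.79 and 7.78 in shControl and 7.54, 7.58 and 7.42 in shRB, and the 3 shRB arrays agreed within 0.16. The difference was -0.27 (SE 0.14, adjusted p = 0.351). HNRNPUL1 stood at 7.78 and 7.79 against 7.69, 7.59 and 7.20 (-0.29, adjusted p = 0.395). HNRNPCL2, a dim copy related to HNRNPC, had the largest negative difference of the family (-0.30, adjusted p = 0.32), with 4.75 and 4.87 against 4.53, 4.61 and 4.38. Its probes may share signal with its near copies, and HNRNPC itself, which binds uridine tracts, differed by 0.08.

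HNRNPA1, a repressor of many exons, was the hnRNP gene with the largest positive difference, 0.18 (adjusted p = 0.539), at 7.68 and 7.78 in shControl and 7.92, 7.88 and 7.93 in shRB. The probe sets named for 2 of its pseudogenes went the other way. HNRNPA1P10 stood at 11.35 and 11.36 against 11.16, 11.09 and 10.90 (-0.31, adjusted p = 0.309), and HNRNPA1P33 at 8.12 and 8.32 against 7.86, 7.94 and 7.66 (-0.40, adjusted p = 0.215). Such near-identical sequences can share signal, so the level of HNRNPA1 is uncertain.

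U2AF recognises the polypyrimidine tract and the AG at the 3′ end of the intron. U2AF2, its large subunit, stood at 5.98 and 6.41 in shControl and 5.99, 5.97 and 5.85 in shRB, with overlapping groups (difference -0.26, adjusted p = 0.449). U2AF1L4, a paralog of the small subunit, stood at 4.98 and 4.70 against 5.14, 5.36 and 5.43. Every shRB array lay above both shControl arrays (0.47, SE 0.16, adjusted p = 0.167). It is dim, and with 16 taken off and 4 added the difference was 0.74.

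The PRPF genes held the widest spread. Of 10, 5 had an unadjusted p under 0.05, where 18.1% of all genes did. The same 5 had groups that did not overlap (36.0% of all genes), 2 with shRB above (20.6%) and 3 with shRB below (15.4%). None passed after adjustment. Without shRB replicate 3, 2 of the 10 had an unadjusted p under 0.05, where 11.9% of all genes did. The median difference was -0.18, and -0.03 without that array. PRPF40B (probe set 16750857, chromosome 12), related to a yeast factor that binds the U1 snRNP, stood at 5.50 and 5.93 in shControl and 5.07, 5.24 and 4.99 in shRB. Its difference of -0.62 (SE 0.17, 95% interval -0.99 to -0.24) was the most negative of the 88, 1.53-fold lower on the deposited scale, with an adjusted p of 0.105. Without shControl replicate 1, the lower control array, the difference was -0.83 and passed (adjusted p = 0.0405), the 1 member to do so where 2.77% of all genes did. With 1 control array left, the spread comes from the shRB arrays alone, and the lone control is assumed to vary as they do. Without shControl replicate 2 instead, the difference of PRPF40B was -0.4. Over all 13 alternative settings its adjusted p ranged from 0.0405 to 0.344. With 16 taken off the linear means, the shRB level was 0.49 of that in shControl.

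PRPF38A, needed for activation of the spliceosome, stood at 7.80 and 8.03 against 7.61, 7.47 and 7.23 (difference -0.48, SE 0.17, adjusted p = 0.166). PRPF31, a protein of the U4/U6 snRNP whose mutation causes retinitis pigmentosa, stood at 7.45 and 7.60 against 7.26, 7.19 and 6.68 (-0.48, SE 0.19, adjusted p = 0.212). In PRPF31 shRB replicate 3 lay 0.51 below the next shRB array and in PRPF38A 0.24 below, and neither gene's groups overlapped. PRPF4, a further U4/U6 protein, stood at 7.28 and 7.62 against 7.33, 7.13 and 6.85, with overlapping groups (-0.35, adjusted p = 0.336).

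The partner of PRPF4 in that particle went in the other direction. PRPF3 (probe set 16670499, chromosome 1) stood at 6.90 and 6.75 in shControl and 7.34, 7.38 and 7.23 in shRB, a gap of 0.33 between the nearest arrays of the groups. The difference was 0.49 (SE 0.15, 95% interval 0.17 to 0.81, adjusted p = 0.122), and the adjusted p ranged from 0.0674 to 0.319 over the alternatives. PRPF39, a U1 snRNP-associated factor, stood at 5.84 and 5.74 against 6.12, 6.16 and 6.34 (0.42, SE 0.15, adjusted p = 0.178). PRPF8, the protein at the centre of the catalytic core, differed by -0.09 and PRPF19, a ubiquitin ligase of the spliceosome, by -0.09, with overlapping groups in both. Their values were 9.26 and 9.42 against 9.33, 9.35 and 9.07 for PRPF8 and 8.14 and 8.28 against 8.24, 8.04 and 8.07 for PRPF19. PRPF6, which bridges the U5 and U4/U6 particles, stood at 7.36 and 7.02 against 7.18, 7.21 and 6.40 (-0.26, adjusted p = 0.597), with overlapping groups and shRB replicate 3 far below the rest.

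**Figure D4:**
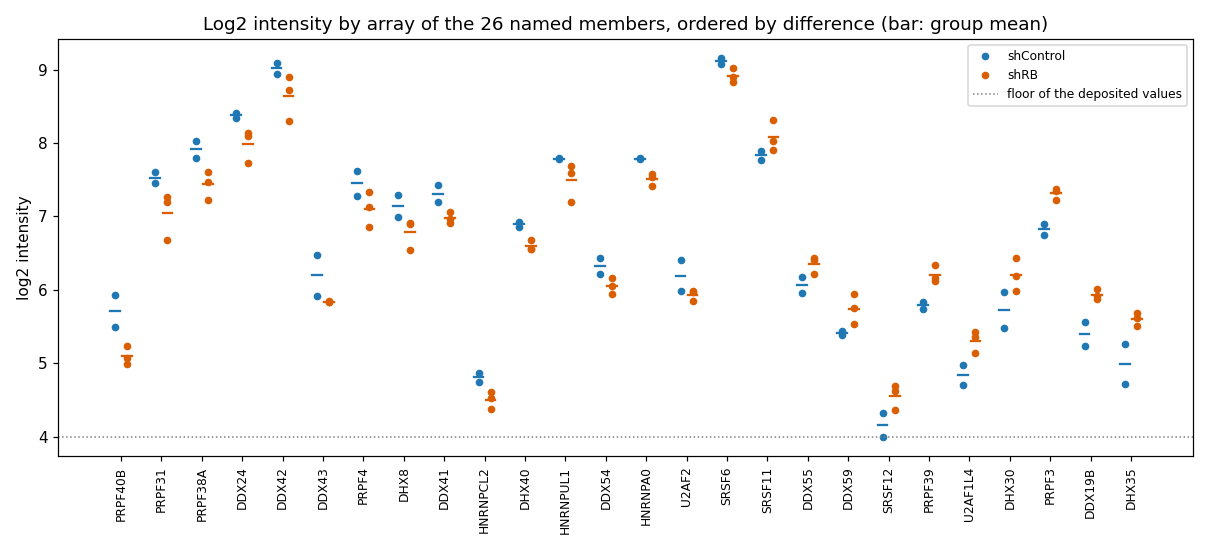
Log2 intensity of 26 members in each array (blue, 2 shControl arrays; orange, 3 shRB arrays; bars, group means), ordered by difference from PRPF40B (-0.62) at the left to DHX35 (0.61) at the right; the dotted line is the floor of the deposited values. SRSF12 and HNRNPCL2 lie closest to the floor.

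Among the 14 helicases of splicing and mRNA export, 11 differences were negative and 3 positive (median -0.20). Groups did not overlap for 9 genes (36.0% of all genes), 7 with shRB below (15.4%). DDX42, which associates with the U2 snRNP protein SF3B1, stood at 9.09 and 8.94 in shControl and 8.90, 8.72 and 8.30 in shRB (difference -0.38, adjusted p = 0.313). DHX8, which releases the spliced transcript, stood at 6.99 and 7.29 against 6.91, 6.90 and 6.54 (-0.35, adjusted p = 0.306). DDX41, a helicase mutated in familial myeloid neoplasms, stood at 7.43 and 7.19 against 6.97, 7.06 and 6.91 (-0.33, adjusted p = 0.276), and its 3 shRB arrays lay close together. DDX46 (-0.29), which acts when the U2 snRNP joins the intron, and DHX38 (-0.30), which acts before exon ligation, also had non-overlapping groups. DDX5 and DDX17, paralogs that also coactivate transcription, differed by -0.08 and -0.25. The median of the group without shRB replicate 3 was -0.08, with 10 negative differences.

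DHX35 (probe set 16913689, chromosome 20), a DEAH-box protein of the spliceosome, had the largest positive difference of the 88. It stood at 4.72 and 5.26 in shControl and 5.69, 5.62 and 5.51 in shRB, so every shRB array lay above both controls, which themselves differed by 0.53. The difference was 0.61 (SE 0.18, 95% interval 0.22 to 1.00, adjusted p = 0.112), or 1.53-fold on the deposited scale and 2.0-fold with 16 taken off. Without shControl replicate 2 it was 0.88 and passed (adjusted p = 0.0388), the 1 member to do so where 1.63% of all genes did. That call again rests on the spread of the shRB arrays alone. Without shControl replicate 1 instead, the difference of DHX35 was 0.35. Over the alternatives the adjusted p ranged from 0.0388 to 0.312. DDX19B, which remodels mRNPs at the nuclear pore, stood at 5.56 and 5.24 against 6.01, 5.87 and 5.92 (0.54, SE 0.16, adjusted p = 0.114). DDX19A, its neighbour and close paralog on chromosome 16, stood at 5.53 and 5.86 against 5.79, 5.94 and 6.02 (0.22, adjusted p = 0.501), with overlapping groups. The pair may share probe signal.

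The 14 helicases of ribosome biogenesis divided evenly, 7 positive and 7 negative (median 0.002). DDX24, a nucleolar helicase, stood at 8.34 and 8.41 in shControl and 8.10, 8.13 and 7.73 in shRB (difference -0.39, SE 0.17, adjusted p = 0.247). DDX21, which binds RNA polymerase I transcripts, stood at 9.20 and 9.19 against 9.14, 9.05 and 8.57 (-0.28, adjusted p = 0.46). In DDX21 shRB replicate 3 lay 0.48 below the next shRB array, and the other shRB arrays were close to shControl. DDX54 stood at 6.22 and 6.43 against 6.05, 6.16 and 5.95 (-0.27, adjusted p = 0.378). On the positive side were DDX55, at 5.96 and 6.18 against 6.44, 6.41 and 6.22 (0.29, adjusted p = 0.353), and DDX56, at 7.78 and 7.65 against 7.97, 7.90 and 7.99 (0.24, adjusted p = 0.415). Both are nucleolar proteins of large-subunit assembly, and in both the groups did not overlap.

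The remaining 17 helicases act in translation, decay, mitochondria, the germ line or processes less well defined. The difference was positive in 9 and negative in 8 (median 0.01). DHX30, which supports mitochondrial ribosome assembly, stood at 5.48 and 5.97 in shControl and 6.44, 6.19 and 5.98 in shRB (difference 0.47, SE 0.19, adjusted p = 0.224). The nearest arrays of its groups were almost equal, so the separation is slight. DDX28, another mitochondrial helicase, stood at 7.07 and 7.05 against 7.17, 7.36 and 7.29 (0.21, adjusted p = 0.479). DDX59 stood at 5.44 and 5.39 against 5.94, 5.76 and 5.53 (0.33, adjusted p = 0.314).

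DHX40 stood at 6.93 and 6.86 in shControl and 6.68, 6.55 and 6.56 in shRB, with narrow groups (difference -0.30, SE 0.14, adjusted p = 0.304). DDX43, a cancer-testis antigen, stood at 5.92 and 6.48 against 5.83, 5.85 and 5.84 (-0.37, adjusted p = 0.302). Its shRB arrays were almost equal, and shControl replicate 2 alone made most of the difference: without it the difference was -0.09. DDX6, a helicase of mRNA decapping and P-bodies, differed by -0.18 (9.43 and 9.61 against 9.35, 9.37 and 9.29). DHX9 (0.07), DHX36 (0.04), which unwinds G-quadruplexes, and DHX29 (-0.02), an initiation factor for structured transcripts, had overlapping groups. The germ-line helicases DDX4 and DDX25 were near the floor, with their highest arrays at 4.43 and 4.61.

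Since RB acts through E2F, the members whose upstream sequence holds an E2F-type motif are shown with their differences. Sequences are from RefSeq windows of GRCh38.p14, matched by gene identifier for 81 of the 88 genes, of which 17 have more than 1 window. The 250 bases before each start site were searched on both strands for TTTGGCGC, TTTCGCGC, TTTCCCGC and TTTGCCGC. A match was found for 8 members (9.88%), compared with 4.78% of the 9704 tested protein-coding genes with a window. Each is printed 5′ to 3′ on the gene's strand, with the motif in capitals in either orientation.
DDX20, chr1:111755818-111755857, plus strand: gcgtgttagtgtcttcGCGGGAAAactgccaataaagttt
DDX46, chr5:134758544-134758583, plus strand: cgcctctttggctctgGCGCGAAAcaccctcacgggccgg
DHX37, chr12:124989142-124989181, minus strand: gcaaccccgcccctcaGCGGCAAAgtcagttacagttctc
DHX40, chr17:59565457-59565496, plus strand: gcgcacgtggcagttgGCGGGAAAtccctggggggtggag
HNRNPA3, chr2:177212544-177212569, plus strand: cgGCGGCAAAggccctcttcccctga
HNRNPK, chr9:83980757-83980796, minus strand: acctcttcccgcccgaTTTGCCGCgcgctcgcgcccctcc
HNRNPLL, chr2:38603079-38603118, minus strand: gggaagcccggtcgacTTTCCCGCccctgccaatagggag
HNRNPUL1, chr19:41264146-41264185, plus strand: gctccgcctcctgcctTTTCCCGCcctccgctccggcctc

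The motif began between 34 (DHX37) and 248 (HNRNPA3) bases before the start site. None of these 8 genes passed the test. Their differences ranged from -0.30 to 0.11, 7 negative and 1 positive, with a median of -0.21, and the 73 matched members without a motif had a median of -0.09 (46 negative, 27 positive). The positive difference was that of HNRNPA3 (0.11). The negative ones were those of DHX40 (-0.30), HNRNPUL1 (-0.29), DDX46 (-0.29), HNRNPK (-0.23), DHX37 (-0.20), HNRNPLL (-0.03) and DDX20. DDX20, which assembles snRNPs with the SMN protein, stood at 5.91 and 5.98 in shControl and 5.90, 6.04 and 5.85 in shRB, a difference of -0.02. DDX46 stood at 8.47 and 8.21 against 8.01, 8.19 and 7.95, and its groups did not overlap. A match is a description of the letters, not of binding, and the comparison of the medians was not tested.

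The upstream sequences of the members with the most negative and the most positive difference differ in the other motifs searched. CCAAT, the letters bound by NF-Y, was found on either strand for 48 of the 81 members (59.3%, compared with 40.6% of tested protein-coding genes) and CACGTG, an E-box, for 13 (16%, compared with 10.1%). These motifs were added after the members' upstream sequences had been seen, and matches of different motifs may overlap. PRPF40B has 1 CCAAT and DHX35 has 2 CACGTG, shown in capitals within the 250 bases before each start site.
PRPF40B, chr12:49623311-49623560, plus strand: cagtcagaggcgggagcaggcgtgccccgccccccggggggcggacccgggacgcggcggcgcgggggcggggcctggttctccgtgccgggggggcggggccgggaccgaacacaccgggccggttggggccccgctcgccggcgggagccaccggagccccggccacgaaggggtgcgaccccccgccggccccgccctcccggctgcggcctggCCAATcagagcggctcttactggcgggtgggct
DHX35, chr20:38962094-38962343, plus strand: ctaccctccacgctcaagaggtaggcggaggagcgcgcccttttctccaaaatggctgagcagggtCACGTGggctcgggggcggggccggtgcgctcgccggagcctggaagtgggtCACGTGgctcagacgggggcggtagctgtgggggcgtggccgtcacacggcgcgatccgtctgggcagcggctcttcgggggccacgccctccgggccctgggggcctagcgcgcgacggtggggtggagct
Members with and without CCAAT had medians of -0.05 and -0.16, and those with and without CACGTG -0.08 and -0.10. A link between these motifs and the direction of the differences was not tested.

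Other genes of the same machinery gave 1 call over all the lists below, where 1.07% of all genes passed. Of 17 listed genes of Sm and LSM proteins, 8 were measured, all of them SNRP genes: SNRPB2, a U2 snRNP protein outside the ring, and 7 genes of the Sm ring. No listed LSM gene was analysed here. All 8 differences were positive (median 0.14), where 7975 of 14812 genes had positive ones, and none passed. The smallest were 0.01 (SNRPD1), 0.02 (SNRPF), 0.04 (SNRPD2) and 0.07 (SNRPB2). SNRPG stood at 4.8 and 5.10 in shControl and 5.76, 5.48 and 5.52 in shRB (difference 0.64, adjusted p = 0.0907). SNRPB stood at 8.79 and 8.64 against 9.07, 9.10 and 9.25 (0.42, adjusted p = 0.171) and SNRPD3 at 9.85 and 9.91 against 10.18, 10.23 and 10.22 (0.33, adjusted p = 0.247). In none of these 3 genes was shRB replicate 3 the lowest of the shRB arrays, and the groups did not overlap in any of them. Over the 8 genes, groups did not overlap in 4, where 36.0% of all genes did not.

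Further proteins of the snRNPs, from U1 and U2 to the U4/U6 and U5 particles and their recycling, numbered 21, and none passed. Of these, 11 had a positive and 10 a negative difference (median 0.07). EFTUD2, the GTPase of the U5 snRNP, stood at 7.61 and 7.55 in shControl and 7.20, 7.21 and 6.95 in shRB (-0.46, adjusted p = 0.151). SART3, which recycles the U4/U6 snRNP, stood at 8.11 and 8.12 against 7.89, 7.79 and 7.41 (-0.42, adjusted p = 0.223). The PRP19 and exon junction complexes (16 measured of 22) had 8 positive and 8 negative differences, with RBM22 at 0.31 (adjusted p = 0.313) and CASC3 at -0.31 (adjusted p = 0.411). SR-related proteins and the kinases of SR proteins (18 of 19) had 8 positive and 10 negative differences, with the kinase DYRK1A at -0.57 (adjusted p = 0.0933) and SCAF8 at -0.34 (adjusted p = 0.234).

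Of the other splicing regulators, 23 were measured of 40 listed, 15 with positive and 8 with negative differences. Of these 23, 1 passed, where 1.07% of all genes did. RALYL, a relative of the hnRNP C-like protein RALY, rose by 1.42 (SE 0.15, adjusted p = 0.00109), from 6.47 and 6.30 in shControl to 7.82, 7.75 and 7.85 in shRB, so the nearest arrays were 1.28 apart. RNA helicases with other names (13 of 21) had 7 positive and 6 negative differences and no call. IFIH1, a sensor of double-stranded RNA, stood at 5.34 and 5.20 against 5.68, 5.93 and 5.81 (0.53, adjusted p = 0.108). ASCC3, a helicase of alkylation repair and ribosome rescue, stood at 8.22 and 7.93 against 8.57, 8.56 and 8.66 (0.52, adjusted p = 0.118).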

How the data were processed

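The authors deposited 1 table of linear intensities for 44607 probe sets on 5 arrays. How these were summarised and normalized, with which software and against which build, is not given in the sources used here. The platform annotation gives 15835 probe sets 1 gene symbol and 0 several, and 28772 are unnamed here. All 15835 were brought to current symbols by Entrez identifier through RefSeq (GRCh38.p14). For 651 genes with several probe sets the one with the highest mean log2 was used, leaving 14812 genes. Printed coordinates are those of the RefSeq windows.

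Log2 intensities were fitted in limma 3.58.1 under R 4.3.3 (lmFit, eBayes) on the 2 groups alone. Tests were two-sided, adjusted by Benjamini-Hochberg across all genes, at 0.05. On simulated data for this comparison (20 simulations of 14812 genes, 200 of them changed) 20.7% of genes shifted by 0.5 were called, 98.3% at 1 and 100% at 2. On average 10.3 unchanged genes were also called. The simulated noise was normal and independent between genes, without the floor or a shift of a whole array. The rates may therefore be too high for these data, above all for dim genes. Named members are any that passed, the 10 largest differences in each direction, the 3 smallest p-values per role, and those whose several probe sets differ in sign, 26 in all. Each list names its passing genes or else its 2 smallest p-values, and RB1 and KLK3 are always given. Further genes were added after their values were seen. Members, lists and motifs were chosen with earlier results of these data known.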

Additional observations from a re-analysis of the deposited data

How the results depend on the processing

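In the 8 alternatives that keep all arrays (quantile normalization, array medians subtracted, 16 subtracted and 4 added, dim genes left out, probe sets averaged, intensity trend with robust variances, array weights, replicate block), 0 of the 88 members passed. Leaving out 1 array, 0 to 1 passed: PRPF40B without shControl replicate 1 and DHX35 without shControl replicate 2, each with 1 control array assumed to vary like the shRB arrays. At an unadjusted p under 0.05 there were 12. The 159 calls among all genes became 13 with 16 subtracted and 4 added, 385 with dim genes left out, 426 with trend and robust variances, 88 with array weights and 22 to 411 without 1 array. With the replicate block there were 24. That fit gives shRB replicate 3, which has no control of its number, no weight in the difference, and the members' median was then -0.005. Same-numbered arrays did not deviate together (r = -0.021 and 0.046), so the numbers are not taken as pairs. Without 1 array, members without overlap numbered 45 to 65, positive differences 29 to 42, and the median ranged from -0.111 to -0.005. Fewer arrays raise the share without overlap among all genes too. It was 36.0% with all arrays and 44.0% without shRB replicate 3. Without shControl replicate 1 or 2 it was 68.3% or 66.9%. The shares of all genes without shRB replicate 1 or 2 are not given here, so those members' counts have no background. RB1 passed with dim genes left out (log2 -0.54, adjusted p = 0.0489). The 26 named members kept their sign wherever fitted, SRSF12, U2AF1L4 and HNRNPCL2 being absent once dim genes were left out. Most of them were picked for large differences or small p-values in these same arrays. Their signs were therefore largely fixed in advance and give no separate support. The 2 shControl arrays limit the precision, and the floor compresses dim genes.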

Other observations

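Genes left out by the choice of members gave further values. DDX60, an interferon-stimulated helicase, stood at 5.28 and 5.05 in shControl and 4.56, 4.58 and 4.73 in shRB (difference -0.54, limma adjusted p = 0.107), whereas DHX58, a regulator of the same RNA sensors, stood at 5.99 and 5.39 against 5.43, 5.65 and 6.08 (0.03, adjusted p = 0.959). U2AF1, the small subunit that reads the AG at the 3′ splice site, stood at 8.35 and 8.52 against 8.42, 8.27 and 8.17 (-0.15, adjusted p = 0.649). DDX11-AS1 stood at 4.75 and 4.49 against 4.94, 4.93 and 4.97 (0.33, adjusted p = 0.277). The DDX11L9 pseudogene stood at 4.25 and 4.23 against 4.87, 4.78 and 4.55 (0.50, adjusted p = 0.135), near the floor and within a family of near-identical copies.

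DHX16, a spliceosomal helicase, is the 1 member with several named probe sets, 8 in all. Their differences ranged from -0.31 (17026668, adjusted p = 0.423) to 0.00 (17039085), fitted over all probe sets, and none passed.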
